A study of Homo sapiens with 4 samples.

Results

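The mesenchymal state of MDA-MB-231 cells was described here by 10 genes chosen by name from the 48162 in the deposited table: the structural markers VIM and FN1, the cadherins CDH2 and CDH11, and the transcription factors ZEB1, ZEB2, SNAI1, SNAI2, TWIST1 and TWIST2. All 10 were matched by symbol, and none of their symbols was repeated in the table. MDA-MB-231 is an established human line from a triple-negative breast cancer. One group was treated for 24 h with 10 µM MGH-CP1, a TEAD palmitoylation inhibitor by the title of the series, and the other received vehicle control, whose composition the labels do not give. Each group held 2 libraries of poly(A) RNA from cells grown in DMEM with serum, and the comparison covers 1 line, 1 dose and 1 time. The labels do not say whether the libraries came from separate cultures, so the spread between replicate libraries may be technical. P-values weigh the group difference against that spread, which the test moderates with the spread of all tested genes.

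Epithelial-mesenchymal transition (EMT) is the program by which epithelial cells lose their junctions and gain a motile, matrix-secreting state. Zinc finger proteins of the ZEB and SNAI families and basic helix-loop-helix proteins of the TWIST family bind E-box sequences and repress epithelial genes such as CDH1, the E-cadherin gene. Vimentin filaments, fibronectin matrix and mesenchymal cadherins are the usual readouts of that state, and MDA-MB-231 is a common model of a breast cancer line that already displays it. YAP and TAZ, coactivators of the Hippo pathway, reach DNA through TEAD proteins.

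Libraries held 16790645 to 18485701 reads over listed genes, recovered from the deposited FPKM (fragments per kilobase, a level corrected for gene length and for library depth). The spread between replicates exceeded counting error, with a median chi-square per gene of 1.05 between MGH-CP1 libraries and 1.78 between vehicle libraries, where sampling alone gives 0.455. All 5 genes taken as marks of the line (VIM, CD44, AXL, CAV1 and EGFR) were expressed, with a summed level of 1005 to 1032 FPKM in MGH-CP1 libraries and 1290 to 1304 FPKM in vehicle libraries. Of these 5, VIM and CD44 were called higher with MGH-CP1, and AXL, CAV1 and EGFR lower (log2 fold changes -0.94, -0.70 and -0.37). ESR1 and FOXA1, luminal breast genes, stayed under 0.227 FPKM in every library and PGR had no read, whereas ERBB2 averaged 25.4 FPKM and EPCAM 8.55 FPKM. The 10 fibroblast markers summed to 5.88 to 6.32 FPKM in MGH-CP1 libraries and 5.02 to 7.62 FPKM in vehicle libraries, and 3 of them reached a mean of 1 FPKM (COL1A1, COL1A2 and PDGFRB). Leukocyte markers summed to 3.65 to 4.02 FPKM in MGH-CP1 libraries and 3.61 to 3.64 FPKM in vehicle libraries, with CD14 the only 1 of 8 over 1 FPKM, while endothelial markers summed to 17.3 to 18.2 FPKM in MGH-CP1 libraries and 15.7 to 17.4 FPKM in vehicle libraries, nearly all of it EGFL7. Vehicle replicate 1 stood apart among genes of low level, as did MGH-CP1 replicate 2 for the keratin genes KRT14 and KRT5. KRT14 had 0 and 27 reads in MGH-CP1 replicates 1 and 2 and 0 and 1 reads with vehicle. KRT5 had 0 and 10 reads with MGH-CP1 and 0 and 0 with vehicle, and both were chosen after their values were seen. COL3A1, SPARC, MMP2, DCN and NEFM, chosen after their values were seen, had 23 and 21 reads together in MGH-CP1 replicates 1 and 2, against 135 reads in vehicle replicate 1 and 6 reads in vehicle replicate 2. These genes are of no single cell type: COL3A1 and DCN are matrix genes, NEFM is a neurofilament gene, and the fibroblast marker THY1 had 1 and 1 reads with MGH-CP1 and 2 and 1 reads with vehicle. In bulk RNA, fewer cells of a type and less RNA per cell cannot be told apart.

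FN1, CDH11 and VIM were higher with MGH-CP1 than with vehicle, and no EMT transcription factor of the 10-gene set was called. FN1, which encodes the matrix protein fibronectin, was 1.69-fold higher. CDH11, which encodes the mesenchymal cadherin OB-cadherin, was higher by 0.57 on the log2 scale, and VIM, which encodes the intermediate filament protein vimentin, was 1.23-fold higher. CDH2, TWIST1 and TWIST2 were close to undetected in both groups. The test was limma on log2(FPKM + 1), run on genes whose mean over all libraries reached 1 FPKM, and 7 of the 10 passed that filter, each of them with a mean over 1 FPKM in both groups. Of these 7, 3 were called higher at an adjusted p under 0.05 and 0 lower, where 20.0% of the 11790 tested genes were called higher, 25.1% lower and 45.0% in either direction. The share of the 7 called in either direction was therefore near that of all genes. No gene of the 7 was lower at an unadjusted p under 0.05 or with voom, limma's method for counts, on the recovered reads. Their median log2 fold change was 0.30, against -0.02 over all tested genes. The MGH-CP1 and vehicle values did not overlap for any of the 7 genes, 6 higher and 1 lower, but 74.1% of all tested genes had groups that did not overlap, 34.7% higher and 39.4% lower. Without vehicle replicate 1, the log2 fold change was 0.53 for SNAI1 and -0.50 for SNAI2, against 0.39 and -0.30 with all 4 libraries.

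**Figure D1:**
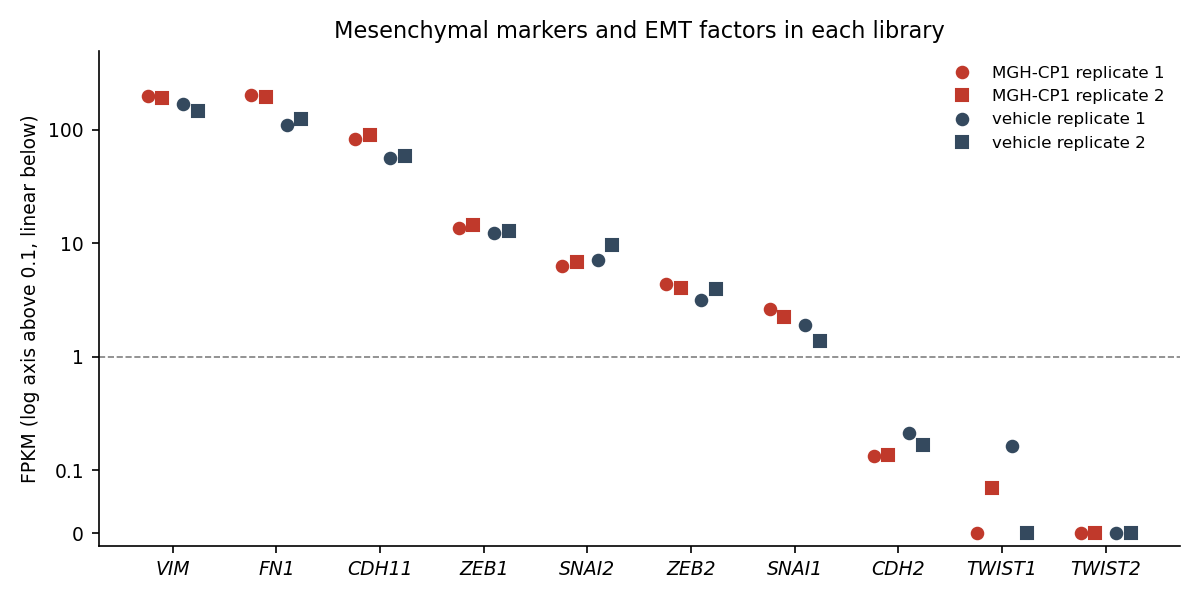
FPKM of each of the 10 genes in each library, ordered by mean level, on an axis that is logarithmic above 0.1 FPKM and linear below. Red points are MGH-CP1 libraries, dark points vehicle libraries, circles replicate 1 and squares replicate 2, and the dashed line marks the 1 FPKM filter on the mean. VIM, FN1 and CDH11 lie far above the transcription factors, and CDH2, TWIST1 and TWIST2 lie below the line.

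FN1 (ENSG00000115414, hg19 chromosome 2, 216225163 to 216300895, minus strand) stood at 204 and 197 FPKM in the MGH-CP1 libraries, against 111 and 126 FPKM in the vehicle libraries. The lowest MGH-CP1 value lay well above the highest vehicle value. These levels rested on 32369 and 30672 reads with MGH-CP1 and 18889 and 19391 reads with vehicle. Mean levels were 201 ± 4.86 FPKM with MGH-CP1 and 119 ± 10.3 FPKM with vehicle (SD, n = 2 each). The log2 fold change was 0.76 ± 0.07 (SE), and its 95% interval ran from 0.59 to 0.92 (limma, adjusted p = 0.000226). FN1 ranked 324 of 11790 tested genes by log2 fold change, and its call held under all 15 alternatives tried, with values of 0.67 to 0.84.

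VIM (ENSG00000026025, chromosome 10, 17270258 to 17279592, plus strand) had 199 and 193 FPKM with MGH-CP1, against 171 and 147 FPKM with vehicle. The groups did not overlap, and the vehicle libraries lay further from each other than the MGH-CP1 libraries did. Means were 196 ± 4.43 FPKM with MGH-CP1 and 159 ± 16.7 FPKM with vehicle (SD, n = 2 each). The log2 fold change was 0.30 ± 0.08, and its 95% interval ran from 0.11 to 0.49 (limma, adjusted p = 0.0186). The value was 0.41 without vehicle replicate 1 and 0.19 without vehicle replicate 2, the extremes over the alternatives. The call was lost without MGH-CP1 replicate 1 (limma, adjusted p = 0.107), without MGH-CP1 replicate 2 (limma, adjusted p = 0.0682) and with no filter on low values (limma, adjusted p = 0.112, the highest of all alternatives, the lowest being 0.000311). An annotated antisense gene, VIM-AS1, overlaps its start, with 2.14 and 2.23 FPKM in MGH-CP1 libraries and 2.64 and 2.56 FPKM in vehicle libraries. The use of strand in counting is not given in the sources used here, so reads of the overlapping bases cannot be assigned to a strand.

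Levels of these structural genes can be compared per length within a library. FN1 was 1.03 and 1.02 times VIM in the MGH-CP1 libraries, against 0.651 and 0.854 times VIM in the vehicle libraries. VIM was thus the more abundant of the pair in vehicle, and with MGH-CP1 the levels were close, with FN1 slightly the higher in both libraries. VIM and FN1 took ranks 244 and 271 by mean FPKM among all listed genes. The 10 genes together took 0.311% and 0.308% of reads in the MGH-CP1 libraries and 0.199% and 0.209% in the vehicle libraries, most of them from FN1, whose mRNA is long. With 2 libraries against 2, an exact permutation test of such a single value cannot give a two-sided p under 0.333, so no p is given for these ratios.

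Promoter windows of FN1 and VIM are shown because these genes were called higher. They run 5′ to 3′ along the gene from 250 bases before to 50 bases after the RefSeq start on build GRCh38.p14, where FN1 is chr2:215436019-215436318 (minus strand) and VIM is chr10:17227991-17228290 (plus strand). Capitals mark GACGTC, the central letters of the cAMP response element TGACGTCA, a motif added after the FN1 window was seen.
FN1: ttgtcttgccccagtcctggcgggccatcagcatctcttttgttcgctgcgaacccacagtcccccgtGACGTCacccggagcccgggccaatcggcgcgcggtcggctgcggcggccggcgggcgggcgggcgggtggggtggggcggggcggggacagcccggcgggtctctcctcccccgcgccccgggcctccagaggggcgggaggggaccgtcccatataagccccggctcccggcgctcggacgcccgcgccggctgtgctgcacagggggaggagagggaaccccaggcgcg
VIM: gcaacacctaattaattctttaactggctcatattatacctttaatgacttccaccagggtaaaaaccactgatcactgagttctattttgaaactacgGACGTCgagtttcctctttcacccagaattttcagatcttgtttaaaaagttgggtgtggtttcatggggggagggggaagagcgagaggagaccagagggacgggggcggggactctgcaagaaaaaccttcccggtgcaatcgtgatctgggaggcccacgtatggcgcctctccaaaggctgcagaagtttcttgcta
Counted from the start, GACGTC begins at position -182 in FN1 and -151 in VIM, and 5.03% of 35116 RefSeq windows of 300 bases hold it. The bases beside it complete TGACGTCA in FN1 but not in VIM, so the VIM match is not the full element. Neither window holds CAGGTG (the E-box bound by ZEB and SNAI proteins), GGAATG (the TEAD motif) or TGANTCA (the AP-1 motif) on either strand, which says only that these letters are not in these windows. The share of G and C was 76.7% in the FN1 window and 48.0% in the VIM window.

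**Figure D2:**
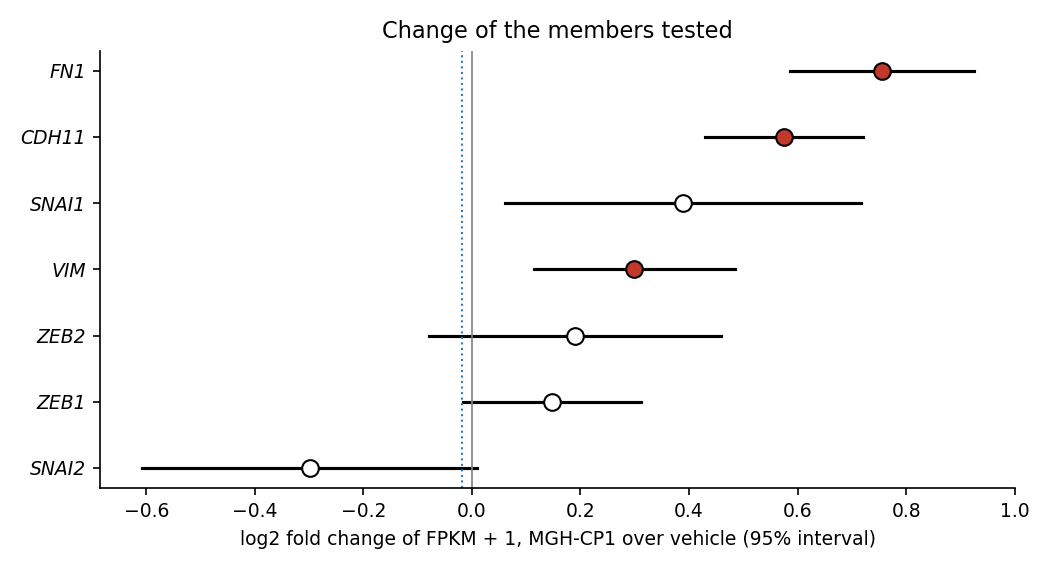
Log2 fold change of FPKM + 1, MGH-CP1 over vehicle, of the 7 genes tested, with 95% intervals as bars. Filled points were called at an adjusted p under 0.05, and the dotted line marks the median of all tested genes. FN1, CDH11 and VIM are filled, SNAI1 is open with an interval above 0, and SNAI2 is the only point left of 0.

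The mesenchymal cadherins differed in level. CDH11 (ENSG00000140937, chromosome 16, 64977656 to 65160015, minus strand) had 83.7 and 90.5 FPKM with MGH-CP1, against 56.9 and 59.3 FPKM with vehicle, and the groups did not overlap. Its means were 87.1 ± 4.79 FPKM with MGH-CP1 and 58.1 ± 1.74 FPKM with vehicle (SD, n = 2 each). The log2 fold change was 0.57 ± 0.06, and its 95% interval ran from 0.43 to 0.72 (limma, adjusted p = 0.000395). The call held under all 15 alternatives, with values of 0.52 to 0.63. CDH2 (ENSG00000170558, chromosome 18, 25530930 to 25757410, minus strand), the N-cadherin gene and the cadherin most often named in EMT, was near the limit of detection. It had 10 and 10 reads in the MGH-CP1 libraries, against 17 and 12 reads in the vehicle libraries. The summed reads correspond to 0.135 FPKM with MGH-CP1 (exact Poisson 95% interval 0.0823 to 0.208) and 0.190 FPKM with vehicle (0.127 to 0.273). These intervals cover counting error only and overlap, which is not a test of a difference, and none was run on this gene. The most reads were in vehicle replicate 1, a library that stood apart among genes of low level, and its part in the value was not tested.

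Other cadherins were mostly silent. Of 20 listed, 7 had no read in any library and 2 were tested. CDH4, which encodes R-cadherin, a classical cadherin close in sequence to N-cadherin, had 3.43 and 3.34 FPKM with MGH-CP1, against 11.4 and 11.8 FPKM with vehicle. It fell to 0.292 times the vehicle level, -1.52 ± 0.08 on the log2 scale (limma, adjusted p = 2.85e-05), and only 0.543% of tested genes had a lower value. CDH24 averaged 3.87 ± 0.493 FPKM with MGH-CP1 and 4.11 ± 0.0984 FPKM with vehicle (SD, n = 2 each) and did not pass (limma, adjusted p = 0.606). Of the 2 tested, 0 were called higher and 1 lower, where 20.0% of all tested genes were called higher and 25.1% lower. Neither was higher at an unadjusted p under 0.05 or with voom, and 2 genes are too few to describe the family. CDH1, the E-cadherin gene, named after its values were seen, lay below the filter at 0.759 and 0.895 FPKM with MGH-CP1 and 0.522 and 0.489 FPKM with vehicle, on 64 and 74 reads with MGH-CP1 and 47 and 40 reads with vehicle. With MGH-CP1 both CDH4 values lay below both CDH24 values, whereas with vehicle CDH4 was second among cadherins only to CDH11.

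**Figure D3:**
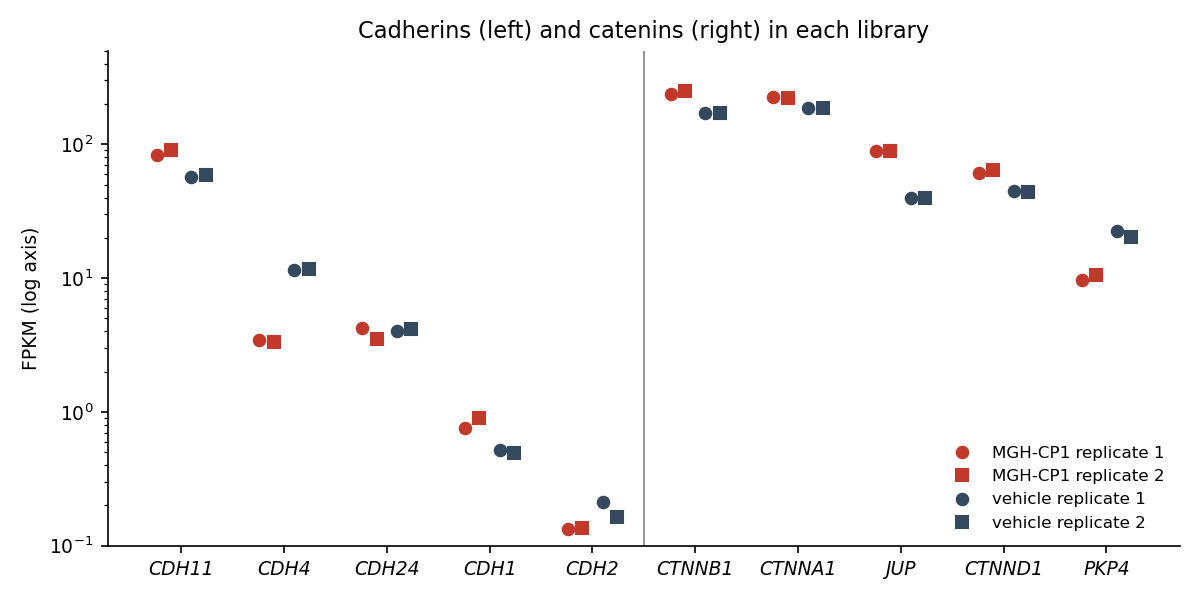
FPKM on a logarithmic axis in each library for 5 cadherins (left of the line) and 5 catenins (right of it), with MGH-CP1 libraries in red and vehicle libraries in dark, circles for replicate 1 and squares for replicate 2. CDH4 is 3.43 and 3.34 FPKM with MGH-CP1 against 11.4 and 11.8 FPKM with vehicle, whereas CDH11, CTNNB1, CTNNA1, JUP and CTNND1 are higher with MGH-CP1.

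Catenins, which anchor cadherin tails to actin or signal in the nucleus, were mostly higher. Of 9 listed, 6 were tested, 4 were higher and 1 was lower, with a median log2 fold change of 0.42. Over all tested genes 20.0% were called higher and 25.1% lower. ARVCF, not called and named after its values were seen, passed the filter only through its MGH-CP1 values. It had 1.32 and 1.34 FPKM with MGH-CP1, against 0.803 and 0.855 FPKM with vehicle, and the median includes it. JUP, which encodes plakoglobin of adherens junctions and desmosomes, had 88.9 and 89.0 FPKM with MGH-CP1, against 39.6 and 39.8 FPKM with vehicle (log2 fold change 1.15 ± 0.05; limma, adjusted p = 1.93e-05). CTNNB1, the β-catenin gene, averaged 244 ± 7.59 FPKM with MGH-CP1 and 172 ± 0.684 FPKM with vehicle, and CTNND1, the p120-catenin gene, 62.6 ± 2.61 FPKM with MGH-CP1 and 44.5 ± 0.332 FPKM with vehicle (SD, n = 2 each). CTNNA1, the α-catenin gene, rose by 0.25 ± 0.06 on the log2 scale, a call lost without MGH-CP1 replicate 1 or 2 (limma, adjusted p = 0.105 and 0.0668). PKP4, a member of the p120 family, fell to 10.1 ± 0.633 FPKM with MGH-CP1, against 21.4 ± 1.62 FPKM with vehicle (SD, n = 2 each).

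Among the transcription factors of the 10-gene set, ZEB1 had the highest level. ZEB1 (ENSG00000148516, chromosome 10, 31607424 to 31818742, plus strand) had 13.7 and 14.6 FPKM with MGH-CP1, against 12.5 and 12.9 FPKM with vehicle. The groups did not overlap, and the log2 difference was 0.15, not called, and its 95% interval ran from -0.02 to 0.31 (limma, adjusted p = 0.124). It passed only after quantile normalization among the 15 alternatives (0.20; limma, adjusted p = 0.0468, with 0.495 the highest). ZEB2 (ENSG00000169554, chromosome 2, 145145568 to 145282147, minus strand) had 4.36 and 4.04 FPKM with MGH-CP1, against 3.18 and 3.97 FPKM with vehicle. That difference, 0.19 on the log2 scale, was not called either (limma, adjusted p = 0.216; 95% interval -0.08 to 0.46). ZEB1 was 3.14 and 3.63 times ZEB2 in the MGH-CP1 libraries and 3.92 and 3.25 times ZEB2 in the vehicle libraries, ranges that overlap.

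The RefSeq table holds 7 promoter windows for ZEB1, and 1 of them (GRCh38.p14, chr10:31318167-31318466, plus strand) is shown because, of 13 windows found for 6 of the 10 genes (VIM, FN1, ZEB1, ZEB2, TWIST2 and CDH2), it was the only one with a TEAD motif. Capitals mark the E-box CAGGTG and the reverse complement of the TEAD motif.
ZEB1: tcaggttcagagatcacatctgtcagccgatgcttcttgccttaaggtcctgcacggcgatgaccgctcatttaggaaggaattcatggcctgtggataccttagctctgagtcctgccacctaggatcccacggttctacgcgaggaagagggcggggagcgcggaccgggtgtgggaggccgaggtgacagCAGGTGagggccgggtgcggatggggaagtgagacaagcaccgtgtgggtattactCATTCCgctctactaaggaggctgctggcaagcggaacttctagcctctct
The E-box begins at position -57 and the TEAD match at position -1, counted from the start. Among all 35116 windows 20.6% held the E-box and 14.0% the TEAD motif, so a single match in 13 windows stands beside a common background. Another ZEB1 window held 3 E-boxes, and a CDH2 window held the AP-1 motif, which 7.71% of all windows hold.

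The SNAI factors differed in opposite directions, and neither passed the test. SNAI1 (ENSG00000124216, chromosome 20, 48599536 to 48605423, plus strand), which encodes Snail, had 2.64 and 2.24 FPKM with MGH-CP1, against 1.89 and 1.38 FPKM with vehicle. The values rested on 77 and 64 reads with MGH-CP1 and 59 and 39 reads with vehicle. Its log2 difference was 0.39 ± 0.14 (limma, adjusted p = 0.0563; 95% interval 0.06 to 0.72). It was called higher in 5 of 14 alternatives, among them without vehicle replicate 1 (0.53; limma, adjusted p = 0.0153, with 0.255 the highest over the alternatives), and the value was 0.25 without vehicle replicate 2 (limma, adjusted p = 0.194). SNAI2 (ENSG00000019549, chromosome 8, 49830249 to 49834299, minus strand), which encodes Slug, had 6.30 and 6.85 FPKM with MGH-CP1, against 7.12 and 9.67 FPKM with vehicle. Its log2 difference was -0.30 ± 0.13 (limma, adjusted p = 0.104; 95% interval -0.61 to 0.01). Vehicle replicate 2 held the highest value, and without vehicle replicate 1 the gene was called lower (-0.50; limma, adjusted p = 0.00249), whereas without vehicle replicate 2 the value was -0.10 (limma, adjusted p = 0.452, which no other alternative exceeded). SNAI2 was 2.38 and 3.06 times SNAI1 per length in the MGH-CP1 libraries, against 3.76 and 7.02 times in the vehicle libraries, so the ranges did not overlap. The 7.02 rested on 39 SNAI1 reads, and the levels of 74.1% of all tested genes did not overlap between groups, so little can be read from this. SNAI3, another gene of the family, named after its values were seen, lay below the filter with 21 and 26 reads with MGH-CP1 and 9 and 14 reads with vehicle.

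TWIST1 (ENSG00000122691, chromosome 7, 19060614 to 19157295, minus strand), a mesoderm regulator and EMT factor, had 0 and 2 reads in the MGH-CP1 libraries, against 5 and 0 reads in the vehicle libraries. All 5 vehicle reads came from replicate 1, a library that stood apart among genes of low level, and its part in the value was not tested. TWIST2 (ENSG00000233608, chromosome 2, 239756673 to 239795893, plus strand) had no read in any library. A count of 0 allows up to 3 reads, which is 0.147 and 0.150 FPKM in the MGH-CP1 libraries and 0.138 and 0.152 FPKM in the vehicle libraries. In every library the factors with a mean over 1 FPKM ranked ZEB1, SNAI2, ZEB2 and SNAI1.

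**Figure D4:**
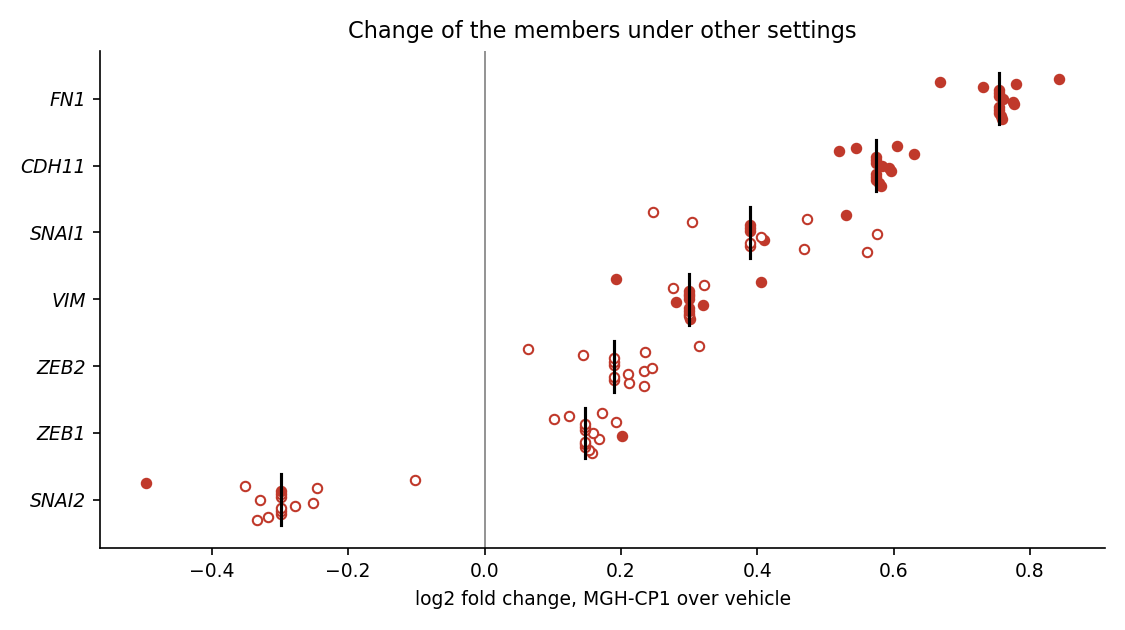
Log2 fold change of each tested gene under every alternative that gave a value (points, filled where the adjusted p was under 0.05), with the reported value as a black bar. All points of FN1 and CDH11 are filled, VIM has 3 open points, ZEB2 has none filled, and no gene crosses 0.

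Other EMT factors were lower where they passed. Of 12 listed, 6 were tested, 4 were lower and 0 higher, with a median log2 fold change of -0.21. The shares over all tested genes were 25.1% lower and 20.0% higher. None was higher at an unadjusted p under 0.05 or with voom. ETS1, a factor of the ETS family, had 35.2 and 33.8 FPKM with MGH-CP1, against 61.1 and 62.8 FPKM with vehicle (log2 fold change -0.83 ± 0.06; limma, adjusted p = 6.39e-05). TCF3, which encodes the E-box proteins E12 and E47, and FOXC1 fell by 0.19 and 0.23 on the log2 scale (limma, adjusted p = 0.0327 and 0.0475), calls lost in 6 and 8 of 15 alternatives, both of them without MGH-CP1 replicate 1 (limma, adjusted p = 0.102 and 0.153) and without MGH-CP1 replicate 2 (limma, adjusted p = 0.2396 and 0.200). The TCF3 call was also lost without vehicle replicate 2 (limma, adjusted p = 0.0516) and the FOXC1 call without vehicle replicate 1 (limma, adjusted p = 0.158). SOX9 differed by -0.14 on the log2 scale, not called (limma, adjusted p = 0.126), and by -0.21 without vehicle replicate 2. HMGA2, also not called and named after its values were seen, went the other way, with a log2 difference of 0.15 (limma, adjusted p = 0.134).

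The list of corepressors and stability regulators of SNAI and ZEB proteins had 16 members, all tested, with 2 higher, 6 lower and a median of -0.08. Among all tested genes 20.0% were higher, 25.1% lower and 45.0% called in either direction, so the share called in this list was near that background. EZH2 and SUZ12, subunits of Polycomb repressive complex 2, were among the genes that fell. EZH2 stood at 7.003 and 7.303 FPKM with MGH-CP1, against 18.5 and 19.0 FPKM with vehicle (log2 fold change -1.28 ± 0.07; limma, adjusted p = 3.03e-05). AJUBA, a LIM protein that binds SNAI proteins and also LATS kinases of the Hippo pathway, averaged 29.8 ± 0.442 FPKM with MGH-CP1 and 58.4 ± 0.893 FPKM with vehicle, and SUZ12 17.5 ± 0.509 FPKM with MGH-CP1 and 30.5 ± 0.974 FPKM with vehicle (SD, n = 2 each). The deacetylase gene HDAC1 and the demethylase gene KDM1A differed by 0.03 and -0.12 on the log2 scale and were not called (limma, adjusted p = 0.695 and 0.117). The higher genes, named after their values were seen, were LIMD1 and FBXL5, with log2 fold changes of 0.28 and 0.19 (limma, adjusted p = 0.0428 and 0.0440). Neither was called without vehicle replicate 1, where the count of higher genes was 0.

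Other mesenchymal and matrix genes split. Of 24 listed, 16 were tested, 5 were higher and 3 lower, with a median of -0.02, the same as all tested genes. The share called in either direction was near the 45.0% of all tested genes (20.0% higher, 25.1% lower). CD44, the hyaluronan receptor gene, averaged 336 ± 9.47 FPKM with MGH-CP1 and 274 ± 3.68 FPKM with vehicle, and MMP14, a membrane-anchored collagenase gene, 218 ± 18.6 FPKM with MGH-CP1 and 170 ± 1.10 FPKM with vehicle (SD, n = 2 each). Each call was lost without an MGH-CP1 library, CD44 without replicate 2 (limma, adjusted p = 0.0843) and MMP14 without replicate 1 (limma, adjusted p = 0.0677). COL6A3, which encodes a chain of collagen VI, fell to 4.25 ± 0.248 FPKM with MGH-CP1, against 7.88 ± 0.185 FPKM with vehicle (SD, n = 2 each). COL6A1 and COL6A2, which encode further chains of collagen VI and were named after their values were seen, were higher by 0.45 and 0.45 on the log2 scale (limma, adjusted p = 0.001004 and 0.000937). S100A4 was the most abundant of the list at 520 ± 17.3 FPKM with MGH-CP1 and 464 ± 7.22 FPKM with vehicle (SD, n = 2 each), 0.16 apart on the log2 scale and not called (limma, adjusted p = 0.0741).

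Of the fibronectin receptors and matrix partners, 15 were listed, 9 tested, 4 higher and 1 lower, with a median of 0.12. Beside this, 20.0% of all tested genes were higher and 25.1% lower. ITGA5, the α subunit of the main fibronectin receptor, had 80.8 and 75.9 FPKM with MGH-CP1, against 53.3 and 52.8 FPKM with vehicle (log2 fold change 0.55 ± 0.06; limma, adjusted p = 0.000338). ITGB1, its β subunit, had 334 and 316 FPKM with MGH-CP1 and 325 and 350 FPKM with vehicle, so the groups overlapped (limma, adjusted p = 0.544). The syndecan gene SDC4 did not pass (log2 difference -0.12; limma, adjusted p = 0.122). FLRT2 was higher by 0.57 ± 0.10 on the log2 scale, and TGM2, the tissue transglutaminase gene, fell by 0.34 ± 0.06, with 175 ± 4.68 FPKM with MGH-CP1 and 221 ± 5.41 FPKM with vehicle (SD, n = 2 each).

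Intermediate filament genes other than VIM, with their linkers, had 8 of 16 listed members tested, 4 higher and 1 lower, and a median of 0.24. The background over all tested genes was 20.0% higher and 25.1% lower. NES, the nestin gene, had 13.9 and 14.2 FPKM with MGH-CP1, against 8.42 and 8.18 FPKM with vehicle (log2 fold change 0.69 ± 0.07; limma, adjusted p = 0.000268). LMNA, which encodes the A-type lamins, averaged 504 ± 16.7 FPKM with MGH-CP1 and 346 ± 15.5 FPKM with vehicle, and PLEC, which encodes the cytolinker plectin, 321 ± 16.9 FPKM with MGH-CP1 and 246 ± 7.86 FPKM with vehicle (SD, n = 2 each). KRT19, the highest of the list, averaged 697 ± 25.2 FPKM with MGH-CP1 and 383 ± 17.2 FPKM with vehicle (SD, n = 2 each; log2 fold change 0.86 ± 0.07; limma, adjusted p = 0.000111). KRT8 averaged 295 ± 5.82 FPKM with MGH-CP1 and 288 ± 0.844 FPKM with vehicle and did not pass, and its partner KRT18 fell to 60.1 ± 1.11 FPKM with MGH-CP1, against 74.5 ± 5.96 FPKM with vehicle (SD, n = 2 each). The KRT18 call was lost without MGH-CP1 replicate 2 (limma, adjusted p = 0.0721). Keratin genes have processed pseudogenes that may share reads, so these values are uncertain.

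Epithelial junction and identity genes, which include these keratins, numbered 27, of which 17 were tested, 9 were higher and 2 lower, with a median of 0.35. For all tested genes the shares were 20.0% higher and 25.1% lower. MAL2, which encodes a protein of apical transport, had 16.5 and 17.2 FPKM with MGH-CP1, against 5.97 and 6.97 FPKM with vehicle (log2 fold change 1.26 ± 0.09; limma, adjusted p = 6.40e-05). TJP3, which encodes the tight junction scaffold ZO-3, had 2.69 and 2.32 FPKM with MGH-CP1, against 0.533 and 0.462 FPKM with vehicle. It passed the filter only through its MGH-CP1 values, so its test result is not given. The count of higher genes and the median of this list include it. The claudin genes CLDN7 and CLDN4, named after their values were seen, were higher by 1.03 and 0.53 on the log2 scale (limma, adjusted p = 0.000400 and 0.000484). The epithelial regulators GRHL2, OVOL1, OVOL2 and ESRP1, named after their values were seen, did not pass 0.0723 FPKM in any library. ESRP2, an epithelial splicing regulator also named after its values were seen, fell to 2.55 and 2.35 FPKM with MGH-CP1, against 3.88 and 4.33 FPKM with vehicle (log2 fold change -0.57; limma, adjusted p = 0.00407). The epithelial list was not tested against FN1, CDH11 and VIM.

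**Figure D5:**
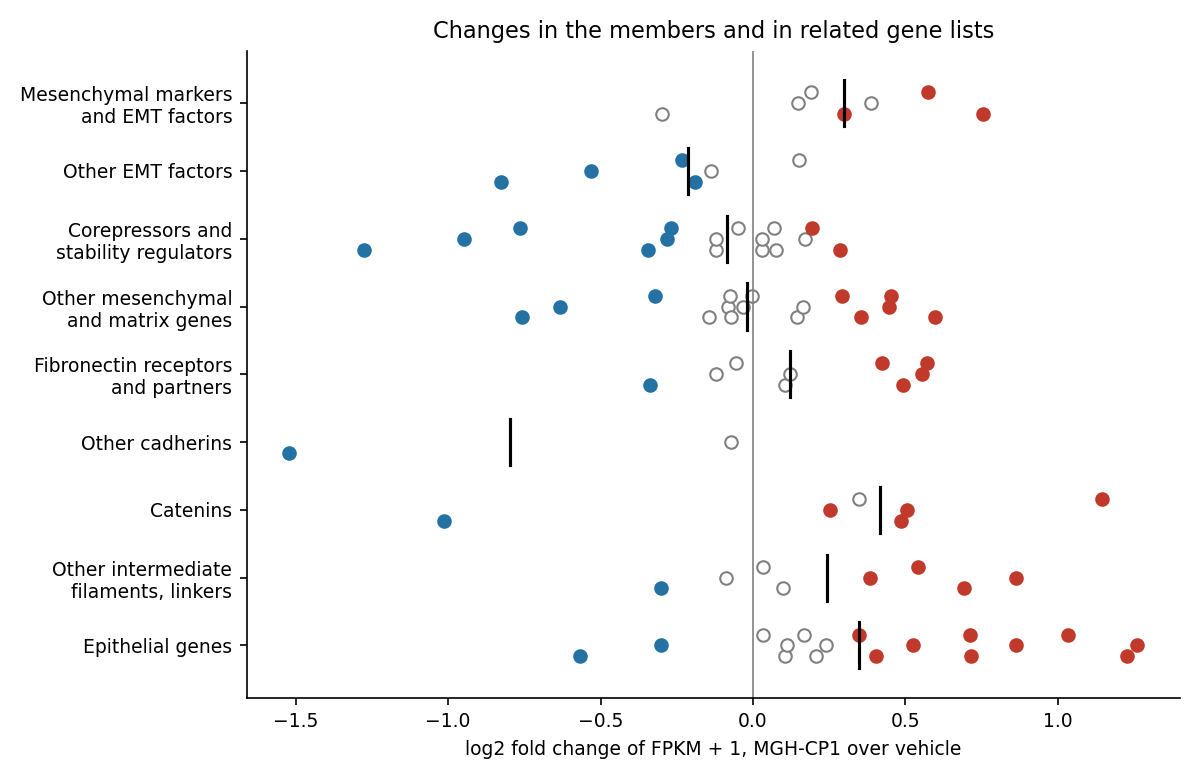
Log2 fold change of FPKM + 1, MGH-CP1 over vehicle, of each tested gene in the 10-gene set and in 8 related lists, 1 point a gene, red where called higher, blue where called lower and open where not called. Black bars are list medians. Other EMT factors are lower where called, epithelial genes are mostly right of 0, and CDH4 is the leftmost point. Points and medians include TJP3 and ARVCF, which passed the filter only through their MGH-CP1 values.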

How the data were processed

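RNA of 4 libraries of MDA-MB-231 cells was measured by poly(A) RNA sequencing, 2 with MGH-CP1 and 2 with vehicle, grouped by sample titles. The authors deposited 1 table of FPKM per gene and library, with gene length and hg19 coordinates per the file headers. The submitters' processing notes name CASAVA 1.8, STAR and hg19. The counting program, strand setting and annotation release were not given in the sources used here.

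FPKM multiplied by length gave whole multiples of 1 step in each library (100% of values above 0 within 0.001 of a whole number), taken as reads. Values were fitted as log2(FPKM + 1) with limma 3.58.1 in R 4.3.3 (group as the only term, mean-variance trend) for the 11790 genes that averaged 1 FPKM or more. P-values were adjusted by Benjamini-Hochberg over all of them, and fold changes on this scale understate the change of low genes. Fold values in the text are ratios of mean FPKM. Motifs were searched on both strands with Python 3.11.15.

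The 10 genes, 8 related lists and 5 marker lists were chosen with earlier results of these data known, and 175 of 176 list entries matched the table. Named beside the 10 genes were the 3 tested genes of highest mean FPKM in each list and up to 2 further called genes with the largest change; others are said to be chosen after their values were seen. Some genes that this rule names are not reported here. Lists are described by counts and medians, without set tests. Alternatives were other pseudocounts (0.1 and 0.5), filters, scalings, voom, a fit without trend, protein-coding genes alone, a replicate block and leaving out each library.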

Additional observations from a re-analysis of the deposited data

How the results depend on the processing

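The 42 genes named by rule were refitted under 15 alternatives, which gave 624 values, of which 586 kept direction and side of the threshold, 24 lost the call, 11 gained one and 3 changed sign. The sign changes were of uncalled genes: KRT8 after quantile normalization (-0.027), HDAC1 without vehicle replicate 2 (range without 1 library -0.012 to 0.073) and CDH24 without MGH-CP1 replicate 2 (range -0.18 to 0.031). The cause was not tested for any of them.

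Of the 10-gene set, 2 to 4 genes were called higher and 0 to 1 lower when 1 library was left out. Over all genes, leaving out 1 library gave 1460 to 2556 higher and 2052 to 3087 lower, and no filter gave 1568 higher. Other EMT factors had 2 genes lower with no filter, after quantile normalization or without a trend, and 2 to 4 without 1 library. Corepressors and stability regulators had 0 genes higher with no filter, with a filter at 0.1 FPKM and without a trend, and without 1 library 0 to 2 higher and 3 to 6 lower. Epithelial genes had 1 gene lower with no filter or a filter at 5 FPKM, and 1 to 2 without 1 library. Fibronectin receptors had 2 higher with the 5 FPKM filter, where fewer genes were tested. Other intermediate filament genes had 0 lower with no filter and 0 to 1 without 1 library.

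The labels do not say whether same-numbered libraries were handled together. Deviations of same-numbered libraries correlated at r = 0.0502 across genes, a value that cannot decide whether they were paired. With the replicate block 2453 genes were higher and 3036 lower, 4 of the 10-gene set were higher and 1 lower (SNAI1 and SNAI2 gained calls), and 1 corepressor or stability gene was higher. Depth limits CDH2, TWIST1 and TWIST2, and 2 libraries a group limit the precision of all tests.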

Other observations

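ZEB1-AS1, an annotated antisense gene that overlaps the start of ZEB1, was lower with MGH-CP1, at 1.19 and 1.11 FPKM, against 1.76 and 1.93 FPKM with vehicle (log2 fold change -0.41 ± 0.12; limma, adjusted p = 0.0295). It was chosen after its values were seen and rested on 61 reads over the 4 libraries. VIM-AS1 differed by -0.18 on the log2 scale and was not called (limma, adjusted p = 0.204).

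The genes of all lists below the 1 FPKM filter numbered 82, and 38 of them had at least 10 reads over the 4 libraries. Of these 38, the highest value was in MGH-CP1 replicate 1 for 5, MGH-CP1 replicate 2 for 12, vehicle replicate 1 for 18 and vehicle replicate 2 for 3. COL3A1 had 4 and 4 reads with MGH-CP1 and 37 and 0 reads with vehicle. SPARC had 9 and 4 reads with MGH-CP1 and 31 and 2 reads with vehicle.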
